A study of Mus musculus with 26 samples.

Results

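The wild-type left ventricle was described here from 6 of the 26 RNA-seq libraries of the series, namely all those whose titles name them wt. The wt mice are labelled wild type on the C57BL6 background and lived under standard housing, and their age is not given in the labels. The series sets these controls beside mice that overexpress the Hippo pathway kinase Mst-1 (MstTg, 7 libraries), a model of dilated cardiomyopathy whose driving promoter is not named in the labels. It also holds mice without galectin-3 (Gal3Ko, 8) and mice with both changes (Mst1Gal3, 5). Total RNA of the ventricle was depleted of ribosomal RNA before directional libraries were made. The labels number the wt libraries as replicates and do not say that each is a separate animal, so the p-values below measure the spread between these samples, which may be technical. No treatment contrast enters the description: it covers the highest genes, the share of each member within its gene family, marker genes of cell types, and the genes that differed most between the 6 libraries.

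The ventricle wall is a pump built mainly of cardiomyocytes, cells packed with sarcomeres and with mitochondria that burn fatty acids. Thick filaments of myosin pull on thin filaments of actin, troponin and tropomyosin when calcium enters the cell and is released from the sarcoplasmic reticulum, and pumps then take the calcium back. Most of these proteins come in families whose members are used in different muscles, chambers or ages. Endothelial cells, fibroblasts, pericytes, smooth muscle cells and macrophages make up much of the rest of the wall.

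The 6 libraries held 20134061 to 27543943 counts over 15249 genes. Within a library, levels of different genes are given as TPM (counts per kilobase of exon, scaled so that every library has the same sum), and between libraries 1 gene is given as CPM (counts relative to the TMM-scaled library size). A count of 1 was worth 0.0363 to 0.0497 CPM, and the floor of 3 counts was at most 0.149 CPM. Replicates 2 and 4 stood apart from the rest: replicate 2 lay at one end of the first principal component (36.8% of the variance of log2 CPM) and replicate 4 at one end of the next (23.2%). Results on lists of genes are therefore also given with each library left out. Every pair of libraries differed beyond sampling noise: the closest pair had a chi-square of 7.71 for each degree of freedom.

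Transcripts of the mitochondrial genome took the largest share of the counts, 31.0% ± 2.36 (SD, n = 6), with 35.5% in replicate 1 and 29.2 to 31.9% in the other 5. The 16S ribosomal RNA mt-Rnr2 alone held 19.0% and the 12S ribosomal RNA mt-Rnr1 3.72%. Without these ribosomal RNAs, mitochondrial transcripts held 8.34% ± 0.710 (SD, n = 6). The highest mitochondrial messenger was mt-Co1, a catalytic subunit of cytochrome c oxidase, with 3.43% of the counts. Next among them came mt-Cytb (1.45%), mt-Nd5 (1.16%) and mt-Nd1 (1.03%), subunits of complexes III and I. The table holds 7 of the 13 respiratory chain messengers of the mitochondrial genome, and mt-Nd3, mt-Nd4l, mt-Co2, mt-Co3, mt-Atp6 and mt-Atp8 were not analysed here. Reads of nuclear copies of mitochondrial genes cannot be separated in gene counts. The 10 highest genes together held 40.7% ± 1.78 (SD, n = 6) of the counts, or 20.3% ± 1.65 when the mitochondrial genes were left out of genes and totals.

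Among nuclear genes the titin gene Ttn, the molecular spring of the sarcomere (GRCm38 chr2:76703980-76982547), gave the most counts, 6.22% of all, because counts also grow with transcript length. Its share was 4.28% in the lowest library and 7.16% in the highest. On the scale per length the highest protein-coding nuclear gene was Mb, which encodes the oxygen-binding protein myoglobin (chr15:77015487-77050670), at 9612 ± 519 TPM (SD, n = 6). Cardiac actin Actc1 followed at 7483 ± 720 TPM and the alpha myosin heavy chain Myh6 at 7397 ± 908 TPM. The lowest library for Mb, at 8974 TPM, lay above the highest for Actc1 (8342 TPM) and for Myh6 (8826 TPM). The ranges of Actc1 and Myh6 overlapped, and their order was within their spread. Atp2a2, the calcium pump of the sarcoplasmic reticulum, stood at 5068 ± 374 TPM, and Pln, the small protein that restrains it, at 2920 ± 133 TPM.

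The 20 highest coding genes fell into a few roles. Sarcomere genes were Actc1, Myh6, the light chains Myl2 (4460 TPM) and Myl3 (3712 TPM), the troponins Tnnc1 (2235 TPM) and Tnni3 (2234 TPM), Mybpc3 (1764 TPM), Tpm1 (1381 TPM) and Ttn (1242 TPM). Energy genes were Slc25a4, which exchanges ATP and ADP across the inner mitochondrial membrane (2396 TPM), the fatty acid carrier Fabp3 (2188 TPM), mitochondrial creatine kinase Ckmt2 (1873 TPM), the ATP synthase subunits Atp5a1 (1855 TPM) and Atp5b (1752 TPM), the cytochrome oxidase subunits Cox7a1 (1521 TPM) and Cox8b (1357 TPM), and the glycolytic enzyme Aldoa (1251 TPM). In all, 12702 genes reached 1 TPM, 504 reached 100 TPM and 48 reached 1000 TPM, of which 30 were nuclear and protein-coding. Part of the exon length of Mb (31.9%) and of Pln (64.7%) is shared with another annotated gene on either strand, and the strand setting of the counting is not given in the sources used here.

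**Figure D1:**
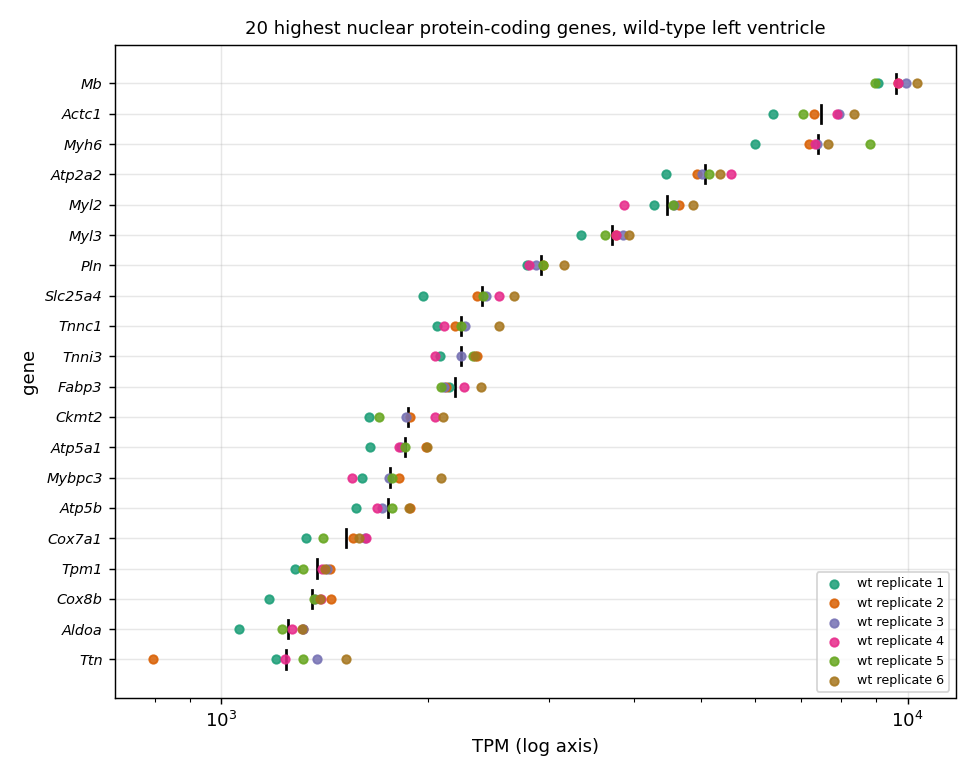
TPM (log axis) of the 20 highest nuclear protein-coding genes in each of the 6 wild-type libraries, with 1 point per library and a black bar at the mean. Mb leads at 9612 TPM, and Ttn is the gene of the 20 with the widest relative range, lowest in replicate 2.

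Gene families were compared on counts per kilobase of exon, so that members of different length could be set beside each other. In 39 of 40 families with at least 2 measured members the leading gene was above the next in all 6 libraries. An exact paired sign-flip permutation test of log2 counts per kilobase (two-sided) gave p = 0.0312 for each of the 39, the smallest that 6 pairs allow, and an adjusted p of 0.0321 over the 40 families. Leaders were chosen from the same libraries, so this p restates that count and adds no support to it. The leader held more than 90% of its family in 19 families and more than 99% in 8, and less than 60% in 3. Direct comparison of shares assumes that exon length measures what a transcript offers to sequencing, and alternatives for length are given in the closing section. The SD printed with a share is the spread between libraries and does not cover the choice of length.

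In each contractile family 1 member held over 90%. Myh6, the fast alpha myosin heavy chain of the adult mouse heart, held 98.5% ± 0.519 (SD, n = 6) of the cardiac myosin heavy chains. The slow beta chain Myh7 ranged from 0.2996% in replicate 4 through a median of 0.969% to 1.76% in replicate 5. The leader's share thus hardly moved while the minor member differed several-fold between libraries. Actc1 held 96.2% ± 1.74 of the sarcomeric actins, and skeletal actin Acta1 held 1.67% in replicate 5 and 6.0% in replicate 6. Cardiac and skeletal actin are near-identical as proteins. Reads from any stretch where the 2 genes also match in bases may have been assigned to either or dropped. Cardiac troponin I (Tnni3) held 99.995% of troponin I, where the slow skeletal form Tnni1, used in the fetal heart, had no count in replicate 1. Cardiac troponin T (Tnnt2) held 99.4% ± 0.113, cardiac myosin-binding protein C (Mybpc3) 99.2% ± 0.0948 and Tpm1 93.7% ± 0.702, with Tpm4 next at 4.97%.

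The ventricular light chains dominated their families as well. Myl2 held 99.8% ± 0.316 of the regulatory light chains, against 0.172% for the atrial form Myl7. Myl7 was at 0.815% in replicate 5, and at 0.0122% in replicate 3, the lowest. Myl3 held 99.5% ± 0.0660 of the essential light chains, followed by Myl1 at 0.421% and the atrial and fetal form Myl4 at 0.0660%.

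The calcium pump, its regulator and the release channel were as one-sided. Atp2a2 held 99.9% ± 0.0147 of the reticulum calcium pumps and Ryr2, the cardiac release channel, 99.9% ± 0.0405 of the ryanodine receptors. Pln held 99.98% ± 0.0526 against Sln, an atrial regulator of the same pump. Sln had 50 counts in replicate 5 and 1 or 2 counts in each of the other libraries. At the membrane the L-type calcium channel pore Cacna1c held 80.4% ± 2.59, followed by Cacna1s at 8.79% and the T-type pores Cacna1g at 6.13% and Cacna1h at 3.68%. The connexin of the working ventricle, Gja1, held 85.1% ± 1.89, ahead of the vascular Gja4 (6.75%), Gjc1 (6.36%) and Gja5 (1.80%).

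Enzyme families favoured the forms known from striated or oxidative muscle. The muscle forms Pfkm (93.8% ± 0.266), Eno3 (97.7% ± 0.105), Cox6a2 (92.1% ± 0.909), Cox7a1 (82.2% ± 1.90) and Cox8b (92.9% ± 0.496) led their families. Slc25a4 held 93.1% ± 0.465 of the adenine nucleotide translocators measured. Ldhb, the lactate dehydrogenase subunit typical of heart, held 85.3% ± 0.413 against Ldha. The insulin-responsive glucose transporter Slc2a4 held 90.9% ± 0.462, with Slc2a1 next at 3.58%. Hk2 held 78.0% ± 1.32 of the hexokinases, and Fabp3 95% ± 0.488 of the fatty acid binding proteins. Ckmt2 held 62.5% ± 1.2 of the creatine kinases, Ckm 36.8% and the brain form Ckb 0.659%. Cpt1a appeared to lead the carnitine palmitoyltransferases at 78.2% ± 4.25, but 81.4% of the exon length of the muscle form Cpt1b is overlapped on its own strand by another annotated gene. Reads there may not have been counted for Cpt1b, so the order of the carnitine palmitoyltransferases is uncertain.

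The pyruvate dehydrogenase kinases were the family in which the leader changed between libraries. These kinases switch off the entry of glucose carbon into the mitochondrion, and Pdk4 is the member induced by fasting and fatty acids. Pdk4 held 51.6% ± 10.7 (SD, n = 6), from 31.3% in replicate 3 to 61.7% in replicate 5. Pdk2 held 37.4% on average and 53.4% in replicate 3. Pdk4 exceeded Pdk2 in 5 of 6 libraries (exact paired permutation test, two-sided, p = 0.156). Without replicate 3 the share of Pdk4 was 55.7% and Pdk4 led in all 5 remaining libraries.

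The hormones of the stretched heart, Nppb and Nppa, also varied in balance. Nppb held 65.7% ± 9.62 of the natriuretic peptides, from 51.3% in replicate 4 to 75.9% in replicate 1, and led in all 6 libraries. An overlap with another gene covers 61.5% of the exon length of Nppa, on either strand, so this balance is uncertain. Translation genes showed the adult muscle forms ahead: Eef1a2 held 80.2% ± 1.18 against Eef1a1, and Rpl3l held 80.8% ± 2.16 against Rpl3. Gata4 held 75.9% ± 1.84 of the measured GATA factors, Ppara 68.3% ± 2.08 of the PPAR receptors and Esrra 57.0% ± 3.23 of the ERR receptors. Mef2d held 54.7% ± 2.48 of the MEF2 factors, and its lead over Mef2a was reversed with other lengths. The AMPK subunit Prkaa2 held 86.5% ± 0.858 against Prkaa1.

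The genes that the study altered in its other groups were low to moderate in the wild type. Stk4, which encodes Mst-1, was at 8.88 ± 1.01 TPM (SD, n = 6) and held 74.3% ± 1.88 of the Mst kinase pair with Stk3. Lgals3, which encodes galectin-3, was at 1.94 ± 0.569 TPM and held 0.755% of the 6 galectins measured. Lgals1 held 68.0% ± 4.63 of them and Lgals4 13.9%. Lgals4, a galectin known from the gut epithelium, had 2 high libraries, 47.6 CPM in replicate 1 and 51.1 CPM in replicate 5, against 27.4 to 30.3 CPM in the other 4.

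**Figure D2:**
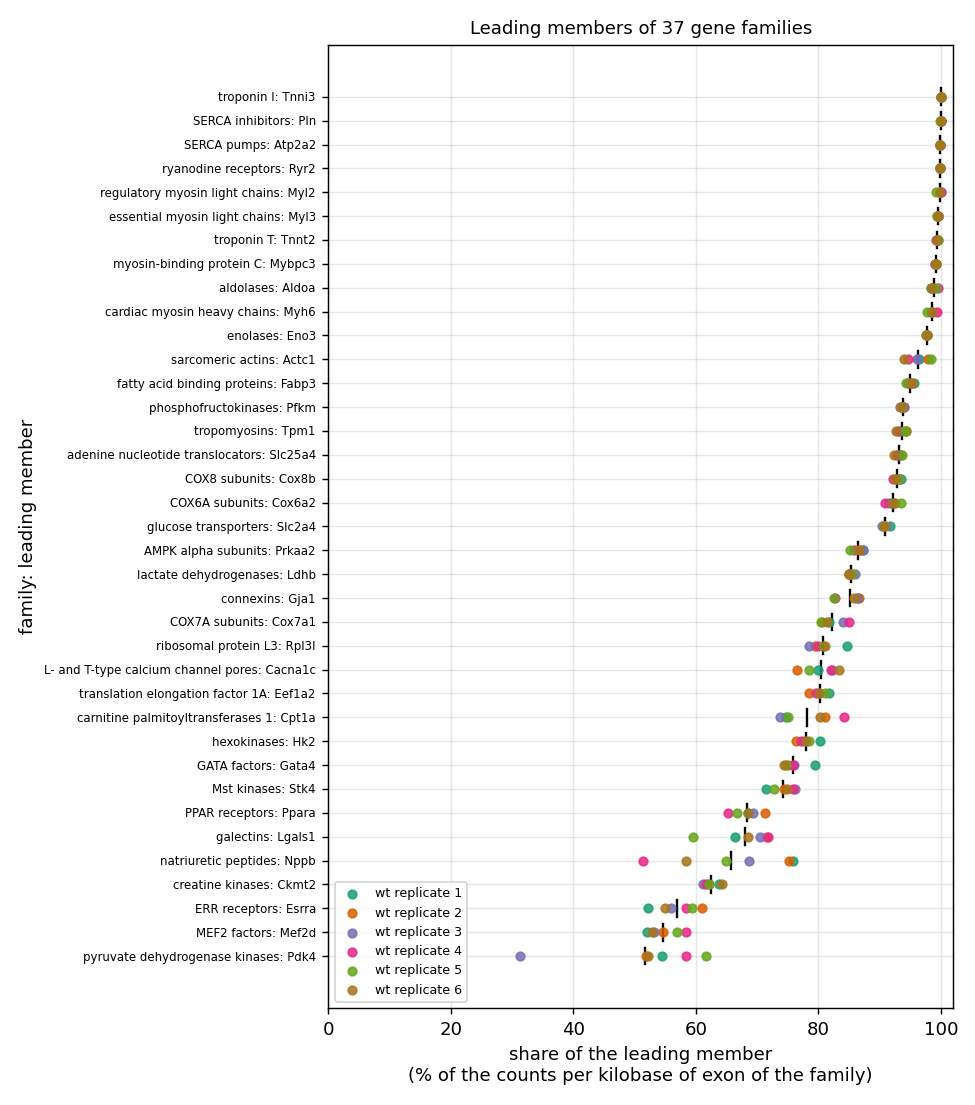
Share of each family held by its leading member, in percent of the counts per kilobase of exon of the family, for 37 of the families in 6 wild-type libraries (points) with the mean as a black bar. Contractile families and those of the calcium pump and release channel lie near the right edge, and Pdk4 has the widest range, from 31.3% in replicate 3 to 61.7% in replicate 5.

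Marker genes matched the label of the tissue. All 20 cardiomyocyte markers were measured, at a median of 2031 TPM against 5.67 TPM over all genes, and the lowest of them stood at 279 TPM. In bulk RNA, fewer cells of a type and less RNA per cell cannot be told apart, so these levels are not cell shares. The 15 endothelial markers had a median of 48.5 TPM, led by Cd36 at 864 TPM, a fatty acid transporter that cardiomyocytes also express, followed by the water channel Aqp1 (200.2 TPM) and Fabp4 (106 TPM). The 15 fibroblast markers had a median of 24.5 TPM, led by the actin-severing protein gelsolin, Gsn (592 TPM), and the proteoglycan decorin, Dcn (117 TPM). The 12 smooth muscle and pericyte markers had a median of 23.4 TPM, led by the pericyte genes Rgs5 (269 TPM) and Abcc9 (138 TPM). Abcc9 encodes a subunit of the cardiac potassium channel that senses ATP and is shared with cardiomyocytes. The 16 macrophage markers had a median of 9.76 TPM, led by lysozyme Lyz2 (157 TPM) and the complement genes C1qb (59.96 TPM) and C1qa (52.5 TPM).

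Other cell types gave little signal. Of the lymphocyte markers 3 of 16 were measured, Ighm (6.06 TPM), Igkc (2.16 TPM) and Cd4 (0.397 TPM), and of the neutrophil and mast cell markers 5 of 12, none above 1.73 TPM. Over all 26 libraries no gene of the table has a mean under 10 counts, so lists of scarce genes are measured in part and genes outside the table were not analysed here. Schwann cell and neuronal genes reached at most 1.39 TPM, mesothelial and epicardial genes 1.47 TPM, and conduction system genes 6.72 TPM (Tbx3). Skeletal muscle genes were measured for 4 of 13 members: Ckm and Acta1, which the heart also expresses, and Atp2a1 (0.507 TPM) and Tnnt3 (0.493 TPM). Y-linked genes were present in all 6 libraries, with Ddx3y between 67.9 and 82.8 CPM. The atrial genes held Nppa at 190.01 ± 68.0 TPM (SD, n = 6), while the defining atrial light chains stood at a median over libraries of 2.46 TPM (Myl7) and 1.05 TPM (Myl4).

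**Figure D3:**
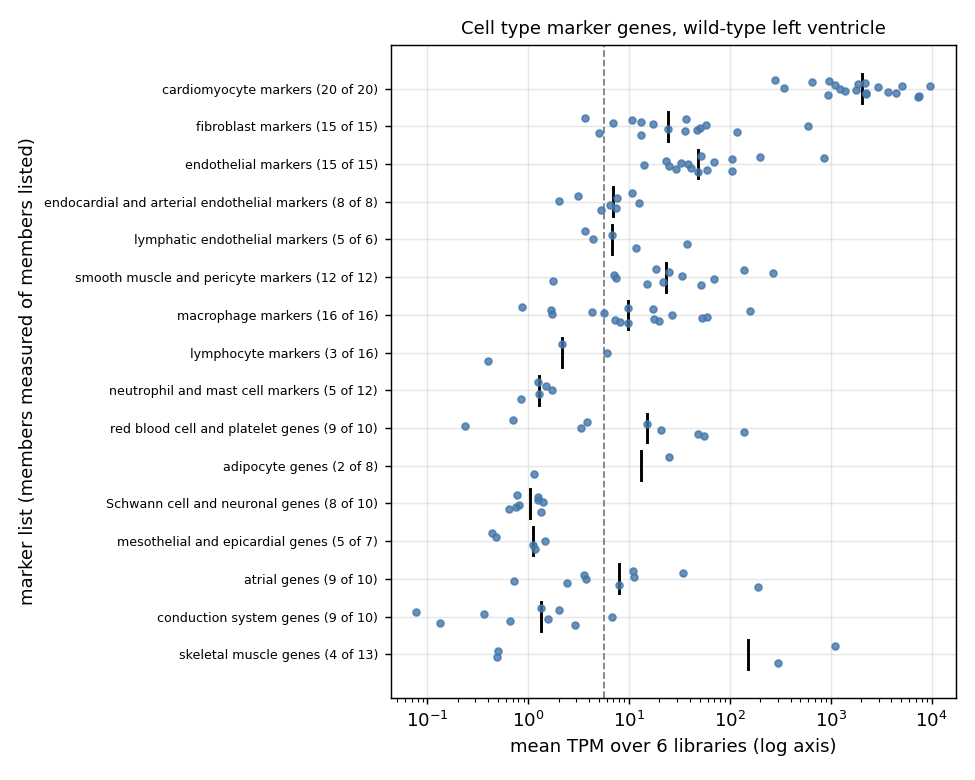
Mean TPM over 6 wild-type libraries (log axis) of each measured member of 16 marker lists, with 1 point per gene, a black bar at the median of the list and a dashed line at the median of all genes (5.67 TPM). Cardiomyocyte markers lie between 279 and 9612 TPM, and endothelial markers come next among the lists with most members measured.

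How far the 6 libraries differed gene by gene was asked with edgeR's goodness-of-fit test, in an intercept-only fit with Benjamini-Hochberg adjustment and a threshold of 0.05. Of 14685 genes with a mean of at least 10 counts, 8292 (56.5%) varied more than counting error allows. A stricter question was which genes varied more than genes of the same abundance do, by the trended negative binomial dispersion. That held for 422 genes (2.87% of those tested), and 1252 genes had an unadjusted p under 0.05. The typical spread, given as the biological coefficient of variation (BCV, the relative SD left after counting error), was 0.118 in common and had a median of 0.111 over genes. The BCV of a single gene is edgeR's tagwise estimate, which is drawn toward the trend of genes of the same abundance. Of the 422 genes, 100 (23.7%) stayed past the threshold whichever library was left out, and 318 were protein-coding. DESeq2 called 140 genes dispersion outliers, all of them among the 422.

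The abundant muscle and energy genes had low spread. None of the 20 cardiomyocyte markers, 19 fatty acid oxidation genes and 23 nuclear respiratory chain genes passed the trend, a count that lists of this size may also give at the 2.87% of all tested genes. Their median BCVs were 0.0785, 0.0807 and 0.0833, against 0.111 over all genes. The lists had median TPMs of 2031, 179 and 500, against 5.67 over all genes, and the comparison was not matched for abundance. The widest of the 20 highest coding genes was Ttn, with a BCV of 0.142 (edgeR goodness of fit, adjusted p = 0.15). Its level was 42527 CPM in replicate 2 and 60912 to 70461 CPM in the other 5. Among 2338 genes of at least 50 CPM the lowest BCVs belonged to Tbl1x (0.0652), a corepressor subunit, Vezf1 (0.0653), a vascular zinc finger factor, and Mccc1 (0.0654), a mitochondrial carboxylase of leucine breakdown. Tbl1x stayed between 51.0 and 52.0 CPM in all 6 libraries. For such steady genes the BCV is held up by the pull toward the trend and is not the gene's own spread.

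Of 20 genes often used as references 2 passed the trend, too few to set the list apart from the 2.87% of all tested genes. Tfrc, the transferrin receptor that brings iron into cells, had a BCV of 0.241 and ranged from 41.7 CPM in replicate 5 to 94.0 CPM in replicate 4. B2m, the light chain of MHC class I, had a BCV of 0.177 and was at 144.5 CPM in replicate 3 and 75.9 to 105 CPM in the others; without replicate 3 its call was lost (edgeR goodness of fit, adjusted p = 0.88). Ywhaz (0.0716) and Polr2a (0.0779) were the steadiest of the list, with Gapdh at 0.0974 and Actb at 0.104.

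**Figure D4:**
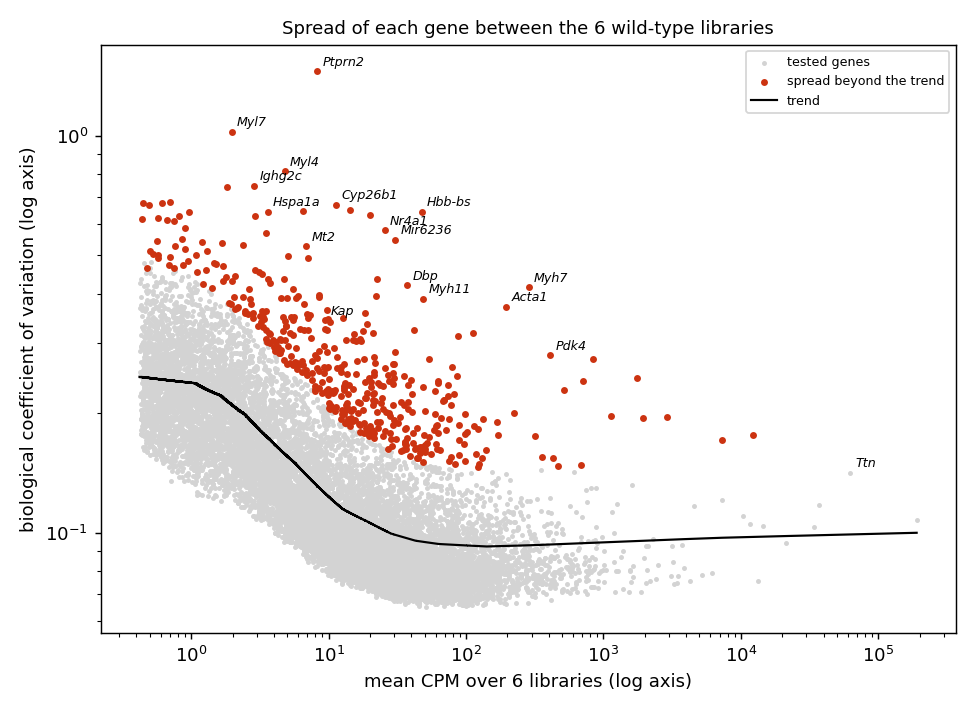
Biological coefficient of variation of each tested gene against its mean CPM over 6 wild-type libraries (both axes log), with the fitted trend as a black line and the 422 genes past it in red. Ptprn2 and Myl7 are the highest labelled points, and Myh7, Acta1 and Pdk4 are the labelled abundant genes above the line.

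Among genes past the trend with a mean of at least 1 CPM, gene models left out, Ptprn2 had the widest spread. It encodes a receptor-type phosphatase-like protein of secretory vesicles (chr12:116485720-117276849). It had 725 counts in replicate 5 and 495 in replicate 6, but 2 to 5 counts in each of the other 4 libraries. That is 31.3 and 17.7 CPM against 0.0918 to 0.219 CPM, and no library lay between. The BCV was 1.45 (edgeR goodness of fit, adjusted p = 2.5e-156). Levels near the floor of 3 counts in 4 libraries make the fold between the groups of libraries imprecise. In the other genotypes Ptprn2 also passed the trend in Gal3Ko and Mst1Gal3 libraries, with BCVs of 0.279 and 0.780.

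The atrial light chains also had a wide spread. Myl7 (chr11:5896637-5898782) was at 9.28 CPM in replicate 5 and at most 0.893 CPM in the others, with a median of 0.677 CPM. Myl4 was at 19.8 CPM in replicate 5 and 0.925 to 2.74 CPM in the others. Both were past the trend (edgeR goodness of fit, adjusted p = 9.2e-31 and 2.8e-42), and both calls rested on replicate 5, without which the adjusted p was 0.11 and 0.25. Of the 8 atrial genes tested 4 passed, against 2.87% of all tested genes. These 4 were Myl7, Myl4, the secreted protein Dkk3, highest in replicate 5 at 9.84 CPM, and Nppa. Nppa was highest in replicate 6 (103 CPM) and lowest in replicate 1 (42.3 CPM), so it did not share the order of the light chains. Without replicate 5 Nppa alone of these 4 was still called. Summed over the 9 measured atrial genes the level was 242 CPM in replicate 5 and 181 to 222 CPM in the others, and the part of atrial tissue in these values was not tested.

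Replicate 5 was also the highest library for Myh7, with 575.5 CPM, against 80.3 CPM in replicate 4 and a median of 251 CPM. Myh7 passed the trend with a BCV of 0.416 (adjusted p = 2.8e-40, edgeR goodness of fit) and in each fit that left 1 library out. The other myosin that passed was Myh7b, at 64.3 CPM in replicate 2 and 125 CPM in replicate 5. Among actins, Acta1 was lowest in replicate 5 (77.1 CPM) and highest in replicate 6 (324 CPM), with a BCV of 0.371. Of 12 hypertrophy and fetal genes 5 passed, against 2.87% of all tested genes. They were Myh7, Acta1, Nppa, Nppb and the growth factor Ctgf, and 3 of them (Myh7, Acta1 and Nppa) passed in every fit without 1 library. Nppb was lowest in replicate 4 at 73.1 CPM against 113 to 149 CPM in the others, and without replicate 4 its adjusted p was 0.98. These genes, grouped as markers of cardiac stress, had their highest values in replicates 2, 5 and 6 and did not move as 1 set. Cyp26b1, an enzyme that degrades retinoic acid, was another gene highest in replicate 5, at 34.1 CPM against 1.54 to 12.5 CPM.

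Immediate early genes switch on soon after a stimulus. Of 20 measured, 12 passed the trend, against 2.87% of all tested genes, and 8 of the 12 did in every fit without 1 library. The median BCV of the list was 0.238, against 0.111 over all genes. Nr4a1, an orphan nuclear receptor, ran from 5.36 CPM in replicate 4 through a median of 18.5 to 59.5 CPM in replicate 5. Egr1 ran from 7.82 CPM in replicate 6 to 53.2 CPM in replicate 5, and Fos from 2.14 CPM in replicate 6 to 15.1 CPM in replicate 5. The list was high in replicates 2 and 5, with sums of 599.6 and 597 CPM, intermediate in replicate 3 (471 CPM) and lower in replicates 1, 4 and 6 (331 to 361 CPM). The order of collection is not given in the labels.

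Blood genes separated replicate 2. The beta globin Hbb-bs (chr7:103826534-103828096) was at 165 CPM there and 16.7 to 36.6 CPM in the others, and the alpha globin Hba-a1 was at 67.3 CPM against 7.22 to 17.0 CPM. Of the 9 red blood cell and platelet genes measured 8 passed the trend, against 2.87% of all tested genes. Of those 8, 3 (Hba-a1, Hba-a2 and Hbb-bs) still did without replicate 2. The globin pairs Hba-a1 and Hba-a2, and Hbb-bs and Hbb-bt, are near-identical copies whose reads may be split between them. The platelet genes Ppbp (6.86 CPM against 0.483 to 1.54) and Itga2b (4.73 CPM against 0.527 to 1.5) were highest in the same library. The summed level of the list was 335 CPM in replicate 2, and 39.6 to 80.9 CPM elsewhere.

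Contractile genes of smooth muscle set the same library apart in the opposite direction. Myh11, the smooth muscle myosin, was at 12.6 CPM in replicate 2 and 37.9 to 75.3 CPM in the others. The actin-binding protein Tagln was at 5.24 CPM there and 16.3 to 26.8 CPM in the others, and the smooth muscle actin Acta2 at 26.6 against 37.5 to 61.9 CPM. The fall was not limited to contractile genes: 9 of the 12 markers of the list were lowest in replicate 2. Rgs5 and Abcc9, the highest of the list, fell little there, with log2 ratios of -0.16 and -0.12 to the median of the 6 libraries. Kcnj8 was at -0.12, and Cspg4, Notch3 and Pdgfrb were at -0.41, -0.35 and -0.20, so pericyte genes were mixed. Of 12 smooth muscle and pericyte markers 6 passed the trend, against 2.87% of all tested genes, and 3 of these 6 did without replicate 2. Endothelial genes were mixed in replicate 2. The 15 endothelial markers had their lowest sum there (2773 CPM against 2864 to 2997), with 7 of 15 at their lowest and 1 at its highest. Among all tested genes 24.06% were lowest and 17.85% highest in replicate 2. Of the 8 endocardial and arterial markers 3 were highest there, among them Vwf (167 CPM against 53.4 to 104) and Npr3 (39.3 CPM against 16.2 to 19.6), and 2 were lowest. Without replicate 2, Npr3 lost its call (edgeR goodness of fit, adjusted p = 1.0), and Vwf kept it. Small structural RNAs were also highest there: Rpph1, the RNA of RNase P, was at 3114 CPM against 1293 to 1812 CPM. The nuclear RNA Neat1 was lowest there, at 353 CPM against 731 to 1127 CPM. Rpph1 and Neat1 were chosen after their values were seen. Replicate 2 was the farthest library, on the low side, for 93 of the 422 called genes, 46 of which are gene models. By lowest CPM alone, a looser measure, replicate 2 came last for 24.06% of all tested genes. The stricter measure was not taken over all tested genes, so whether the count of 93 sets the called genes apart was not tested. The part of blood and vessel content in the other differences of this library was not tested.

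Clock genes marked replicate 4. The mammalian clock is a loop in which the activators Arntl and Clock drive the Per and Cry repressors and the output factors Dbp, Tef and Hlf, so that Arntl and Dbp peak at opposite times of day. Of 19 clock genes measured 9 passed the trend, against 2.87% of all tested genes. Of these 9, 3 (Per2, Per3 and Dbp) passed in every fit without 1 library and 5 without replicate 4. Dbp (chr7:45705088-45710203) was at 86.3 CPM in replicate 4 and 14.9 to 39.7 CPM in the others, with a BCV of 0.421 (edgeR goodness of fit, adjusted p = 9.5e-34). Arntl was at 5.84 CPM there and 17.3 to 23.6 CPM elsewhere, and without replicate 4 its call was lost (adjusted p = 1.0, edgeR goodness of fit). Replicate 1 lay at the other end, with the highest Arntl (23.6 CPM) and the lowest Dbp, Per2 (4.56 CPM) and Ciart (1.23 CPM). Ciart, a repressor of the clock, was highest in replicate 4 at 7.16 CPM. Per1 had another order, lowest in replicate 1 (25.0 CPM) and highest in replicate 5 (53.7 CPM), and it is an immediate early gene as well. The time of day of collection is not given in the labels.

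The promoters of the called clock genes are shown because the loop is known to act on them through the E-box, CACGTG, bound by the activators, and the D-box, TTATGTAA, bound by Dbp, Tef and Hlf. Windows were the 250 bases upstream of each start in RefSeq (GRCm38.p6), searched on both strands. A window was found for 8 of the 9 called genes. These 8 genes have 11 windows, since some have several starts. An E-box stood in 4 of the 11 windows, from 3 genes (Ciart, Per1 and Tef), and in 6.02% of 32851 windows of all genes. A D-box stood in 1 window, that of Per3, and in 0.819% of all windows. The search shows letters, not binding, and a window without a match says nothing of the factor. The windows below run 5′ to 3′ on the gene's strand, with matches in capitals: Ciart at chr3:95882229-95882478 (minus strand, 3 E-boxes), Per1 at chr11:69098699-69098948 (plus strand, 1 E-box) and Per3 at chr4:151044666-151044915 (minus strand, 2 D-boxes).
Ciart: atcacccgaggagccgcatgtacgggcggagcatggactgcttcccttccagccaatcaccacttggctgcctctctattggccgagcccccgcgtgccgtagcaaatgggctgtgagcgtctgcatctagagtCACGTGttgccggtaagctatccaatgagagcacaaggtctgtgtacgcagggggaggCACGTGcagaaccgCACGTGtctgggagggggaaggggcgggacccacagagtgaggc
Per1: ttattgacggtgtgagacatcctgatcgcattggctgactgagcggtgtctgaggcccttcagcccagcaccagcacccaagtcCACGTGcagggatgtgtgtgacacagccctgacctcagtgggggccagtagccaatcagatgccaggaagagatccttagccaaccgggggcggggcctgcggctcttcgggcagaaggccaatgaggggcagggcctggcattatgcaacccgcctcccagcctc
Per3: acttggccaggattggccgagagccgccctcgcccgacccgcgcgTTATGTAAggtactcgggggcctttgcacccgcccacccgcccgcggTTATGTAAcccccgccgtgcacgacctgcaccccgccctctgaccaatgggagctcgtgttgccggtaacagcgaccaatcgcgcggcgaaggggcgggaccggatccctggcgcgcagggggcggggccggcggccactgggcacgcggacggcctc

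Several matrix and macrophage genes were also highest in replicate 4. Sparc, a matrix protein that binds collagen, was at 359.9 CPM there and 181 to 213 CPM in the others, and the basement membrane collagens Col4a1 (651 against 395 to 477 CPM) and Col4a2 (514 against 302 to 354 CPM) were also highest there. Of 26 extracellular matrix genes 10 passed the trend, against 2.87% of all tested genes, and 3 of these 10 did without replicate 4. Of 15 fibroblast markers 4 passed, Col1a1, Col1a2, Mfap5 and Pi16, and none of these 4 without replicate 4. The fibroblast list as a whole did not single out replicate 4: its sum was 2277 CPM in replicate 2 and 2117 CPM in replicate 4. In each of these libraries 7 of 15 markers were highest, against 17.85% of all tested genes in replicate 2 and 22% in replicate 4. Of 16 macrophage markers 7 passed, against the same 2.87%, with 2 of them (C1qc and F13a1) past it in every fit without 1 library. Their summed level was 494 CPM in replicate 4, 432 CPM in replicate 2 and 261 CPM in replicate 5, the lowest. Matrix genes summed to 3931 CPM in replicate 4 and 2557 to 2999 CPM in the others, and the part of cell makeup in either sum was not tested.

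Genes of glucocorticoid and fasting responses were spread over several libraries. Of 20 measured 11 passed the trend, against 2.87% of all tested genes. Of these 11, 5 passed in every fit without 1 library, with Ucp3, Mt2, Zbtb16 and Ddit4 among the 5. Pdk4 was at 162 CPM in replicate 3 and 392 to 551 CPM in the others, and without replicate 3 it was no longer called (edgeR goodness of fit, adjusted p = 0.61). The mitochondrial carrier Ucp3 and the lipase inhibitor Angptl4, which like Pdk4 respond to fatty acids through PPAR receptors, were also lowest in replicate 3. Ucp3 was at 17.9 CPM there and 31.3 to 72.0 CPM elsewhere, and Angptl4 at 2.94 CPM against 7.56 to 15.5 CPM. The glucocorticoid-induced factor Zbtb16 was at 216 CPM in replicate 6 and 60.6 to 123 CPM in the others, and Fkbp5, a cochaperone of the glucocorticoid receptor, at 22.9 CPM against 11.3 to 14.1 CPM. The metallothionein Mt2 was at 18.6 CPM in replicate 4 and 2.33 to 7.79 CPM in the others.

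Replicate 3 was highest for 2 inducible heat shock genes. Hspa1a was at 9.68 CPM there, 6.12 CPM in replicate 2 and 0.828 to 2.07 CPM in the other 4. Hspa1b was at 8.90 CPM in replicate 3, 3.66 CPM in replicate 2 and at most 1.71 CPM in the rest. Of 12 heat shock and chaperone genes 5 passed the trend, against 2.87% of all tested genes. They were Hspa1a, Hspa1b, Dnajb1, Dnaja1 and Hsp90aa1, and 3 of them (Hspa1a, Dnajb1 and Dnaja1) passed in every fit without 1 library. The constant members were steady and abundant, with Hspb7 at 1014 TPM and Cryab at 1002 TPM. Hspa1a and Hspa1b are near-identical copies that lie close to each other on chromosome 17, and their reads may be split between them. Their upstream windows are near-identical as well: 247 of 250 bases are the same (98.8%). Each holds the pair of heat shock factor half-sites GAANNTTC once (searched on both strands, RefSeq GRCm38.p6). The 4 called heat shock genes in the sequence table have 7 windows, of which 3 hold the motif, those of this near-identical pair and 1 of Dnaja1, as do 6.69% of all windows. The matches are in capitals below, for Hspa1a at chr17:34972157-34972406 and Hspa1b at chr17:34959239-34959488, both on the minus strand.
Hspa1a: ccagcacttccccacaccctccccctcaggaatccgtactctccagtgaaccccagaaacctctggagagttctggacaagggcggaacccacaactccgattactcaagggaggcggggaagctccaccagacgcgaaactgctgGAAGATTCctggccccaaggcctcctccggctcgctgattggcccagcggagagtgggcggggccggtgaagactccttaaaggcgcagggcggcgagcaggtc
Hspa1b: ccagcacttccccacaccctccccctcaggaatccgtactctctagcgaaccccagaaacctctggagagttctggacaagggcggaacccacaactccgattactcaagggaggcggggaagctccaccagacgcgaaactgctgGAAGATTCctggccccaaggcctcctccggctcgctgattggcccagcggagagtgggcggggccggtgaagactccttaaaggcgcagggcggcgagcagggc

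Replicate 3 also had the highest MHC class I genes, a list put together after the values were seen. The summed level of the 12 genes was 570.5 CPM there, 435 CPM in replicate 2 and 312 CPM in replicate 6, the lowest. Of the 12, 7 passed the trend, as did 2.87% of all tested genes. Among the 7 were H2-K1, H2-D1, H2-Q4, H2-Q6, H2-Q7 and their transactivator Nlrc5, and none of the 7 passed without replicate 3. The H2 genes are close relatives whose reads may be shared. Of the 21 interferon response genes 2 passed the trend, Igtp, highest in replicate 3 (14.5 CPM), and Rsad2, highest in replicate 4 (19.5 CPM), against 2.87% of all tested genes. Without replicate 6 neither was called, and in each fit without another library 1 of them was. The class II genes H2-Aa, H2-Ab1, H2-Eb1 and Cd74, which antigen-presenting cells use, were past the trend and high in replicates 2 and 3, with sums of 203 and 204 CPM over 5 genes against 89.6 to 151 CPM.

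Kidney transcripts were present at low levels and moved together, also in a list put together after the values were seen. Kap, a protein of the proximal tubule, stood at 30.8 TPM, the highest of the 20 tubule genes measured of 22 listed. It was at 4.19 CPM in replicate 4, 4.75 CPM in replicate 5 and 9.42 to 14.5 CPM in the other 4. The phosphate transporter Slc34a1 was at 2.97 and 3.62 CPM in replicates 4 and 5 and 7.94 to 11.0 CPM in the others, and the endocytic receptor Lrp2 at 7.31 and 5.78 CPM against 12.6 to 16.1 CPM. All 20 had their lowest value in replicate 4 or 5, as did 35.9% of all tested genes. Not every member was low in both: Slc12a1 had a log2 ratio to the median library of -0.42 in replicate 3 and -0.24 in replicate 4. The summed level was 45.0 and 52.4 CPM in replicates 4 and 5 and 96.1 to 129 CPM in the others. Of the 20, 9 passed the trend, as did 2.87% of all tested genes, with 7 of the 9 past it in every fit without 1 library. The liver gene Alb, chosen after its values were seen, had the same low libraries, 3.02 and 3.28 CPM against at least 6.96 CPM in each of the others. The source of these reads was not tested.

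Further genes with a wide spread stood out in single libraries. The small RNA gene Mir6236 (chr9:110281287-110281409), which is annotated as a microRNA, was at 91.0 CPM in replicate 1 and 12.1 to 27.7 CPM in the others. The same library had the highest mitochondrial share, 35.5%, and the part of mitochondrial RNA in this value was not tested. The immunoglobulin constant gene Ighg2c had 1 count in replicate 5, and 35 to 117 counts in the others. Msln and Upk3b, genes of the mesothelial cells on the surface of the heart, were lowest in replicate 1 at 0.351 and 0.483 CPM, and both lost their call without it.

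**Figure D5:**
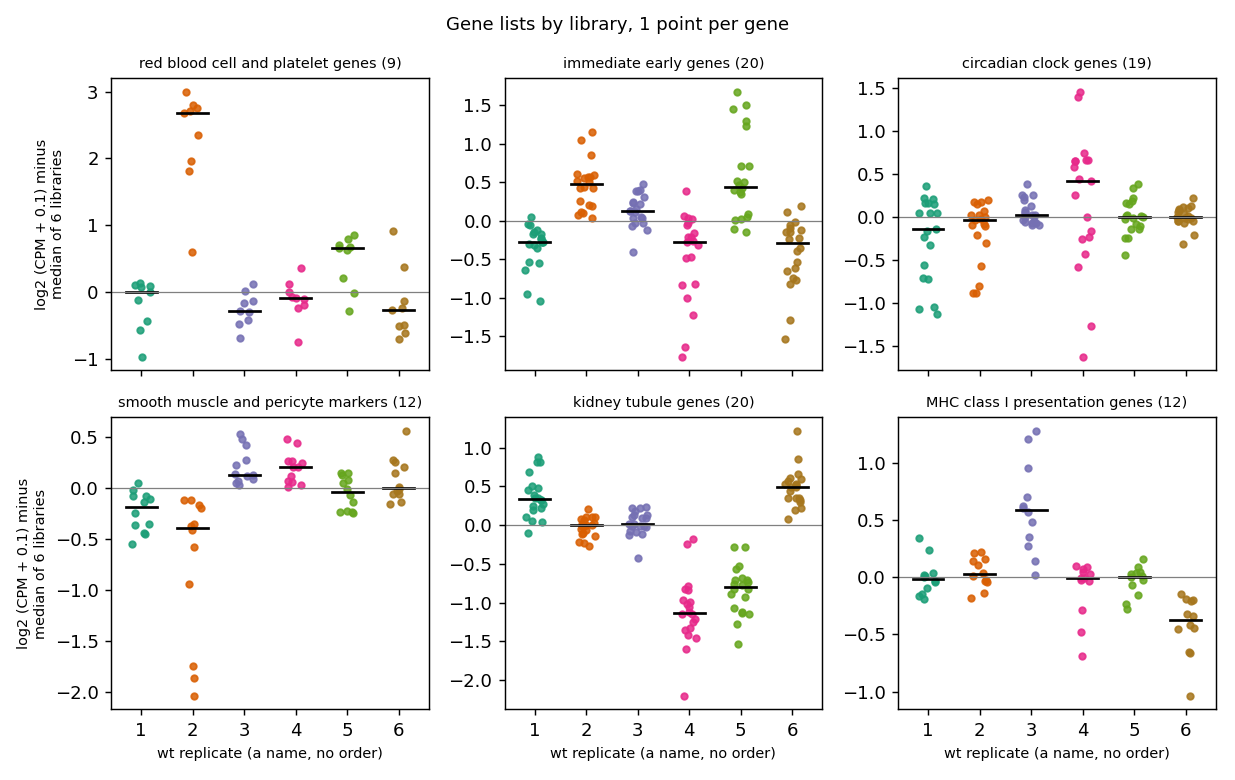
log2 of CPM + 0.1 in each wild-type library minus the median of the 6 libraries, for the measured members of 6 gene lists (1 point per gene, black bar at the median of the list in that library). Blood genes are high in replicate 2 (median 2.69), kidney tubule genes low in replicates 4 and 5 (medians -1.13 and -0.80) and MHC class I genes high in replicate 3 (median 0.58).

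The same test was run within each other genotype, whose libraries had no part in choosing the wild-type genes. Of the 422 genes 162 were also past the trend in MstTg, 38.4% of the wild-type list and 37.2% of the MstTg list, where 2.89% of tested genes were. In Gal3Ko 198 were shared (46.9% and 40.5% of the lists, background 3.31%), and in Mst1Gal3 87 (20.6% and 32.6%, background 1.77%). All 4 groups shared 40 genes, among them Dbp, Per1, Per2 and Per3, the globins Hba-a1, Hba-a2, Hbb-bs and Hbb-bt, the light chains Myl7 and Myl4, Nr4a1, Atf3, Hspa1a, Hspa1b, Pdk4, Zbtb16 and the kidney gene Kap. Myh7 was past the trend in MstTg as well (BCV 0.264) and not in Gal3Ko (0.107) or Mst1Gal3 (0.113), and the difference between groups was not tested. Ttn had BCVs of 0.0799 to 0.0954 in the other groups.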

How the data were processed

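The authors deposited 1 table of whole-number read counts per gene, with no normalization, for 15249 genes in 26 mouse left ventricle libraries, of which the 6 wt columns were used here. Per the submitters' processing notes, reads were processed with bcl2fastq 2.19.1.403, STAR and featureCounts on GRCm38. Neither the labels nor the notes give an annotation, a version for STAR or featureCounts, the strand option or what was done with reads that map to several places.

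Counts were fitted in R 4.3.3 with edgeR 4.0.16: TMM factors, an intercept only, estimateDisp, and the goodness-of-fit test against dispersion 0 or the trended dispersion, Benjamini-Hochberg adjusted over 14685 genes with a mean of at least 10 counts. DESeq2 1.42.0 served as an alternative. Exon lengths and positions came from GENCODE M21, which lacked 49 of the gene identifiers. Leading family members were tested with exact paired permutations on log2 counts per kilobase with 0.5 counts added. Members and gene lists were chosen with earlier results of these data known, and the kidney and MHC lists after the values were seen. Genes were named by rule: the 20 highest coding genes and the 10 highest of any kind, mitochondrial genes, family members, up to 4 top markers per list, the 20 widest spreads at 1 CPM or more (and the 20 of those past the trend without any 1 library), called members of response lists, the 10 steadiest genes, references, Stk4, Lgals3 and Y-linked genes. Gene models (Gm or Rik names) were left out of the widest spreads. Called members of the cell type lists were named after their values were seen. On simulated data of 14562 genes, a change of 1.5, 2, 3 or 5-fold in 1 library was recovered in 4, 54, 90 and 100% of genes, with 7 of 14362 unchanged genes called. The dispersion of every simulated gene was set on the fitted trend. The 7 calls are therefore no false call rate for genes that scatter around the trend. The simulated data gave a common BCV of 0.133, against 0.118 in the real data. Floors cover counting error only, since no molecular identifiers separate copies of 1 molecule. Some members of the lists and families, included in the counts, are not reported here by name.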

Additional observations from a re-analysis of the deposited data

Results flagged for a closer look

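For 25 of the 106 variable and target genes named, 1 library lay farther from the other 5 than Dixon's 95% critical value for 6 samples allows. Chance flags about 1 in 20 groups, but most of these genes were named for their wide spread, so the number found is no comparison with chance. In replicate 1 the high library value was Mir6236 (91.0 CPM against 12.1 to 27.7). In replicate 2 the high library values were Alas2 (10.7 CPM against 1.29 to 3.28), Hba-a1 (67.3 CPM against 7.22 to 17.0) and Hba-a2 (49.2 CPM against 4.32 to 12.4). In replicate 2 the high library values were Hbb-bs (165 CPM against 16.7 to 36.6), Hbb-bt (22.3 CPM against 2.02 to 5.31) and Itga2b (4.73 CPM against 0.527 to 1.5). In replicate 2 the high library values were Npr3 (39.3 CPM against 16.2 to 19.6) and Ppbp (6.86 CPM against 0.483 to 1.54). In replicate 3 the high library value was Hspa1b (8.90 CPM against 0.992 to 3.66). In replicate 4 the high library values were Col4a1 (651 CPM against 395 to 477), Col4a2 (514 CPM against 302 to 354) and Dbp (86.3 CPM against 14.9 to 39.7). In replicate 4 the high library values were Hlf (30.7 CPM against 16.7 to 21.6), Mfap4 (18.9 CPM against 4.31 to 9.32) and Mt2 (18.6 CPM against 2.33 to 7.79). In replicate 4 the high library values were Sparc (359.9 CPM against 181 to 213) and Tef (151 CPM against 78.0 to 105). The 1 low value was that of Arntl (5.84 CPM against 17.3 to 23.6) in replicate 4. In replicate 5 the high library values were Cyp26b1 (34.1 CPM against 1.54 to 12.5), Egr1 (53.2 CPM against 7.82 to 22.3) and Myl4 (19.8 CPM against 0.925 to 2.74). In replicate 5 the high library value was Myl7 (9.28 CPM against 0.138 to 0.893). In replicate 6 the high library values were Fkbp5 (22.9 CPM against 11.3 to 14.1) and Stk4 (24.7 CPM against 21.1 to 22.4). Of these genes Stk4 was not past the trend. The causes were not tested.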

How the results depend on the processing

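For genes varying beyond the trend (422), a common dispersion for all genes gave 791 and DESeq2's dispersion outliers 140. Leaving out 1 library gave 333 to 355, and the other settings 367 to 510 (other size factors, library totals, other count filters, no mitochondrial genes, the trend of all 26 libraries, and protein-coding nuclear genes only, a setting added after seeing the data). The number of genes varying beyond counting error was 6852 to 9062 over all settings. The common BCV was 0.107 to 0.126 without 1 library and 0.108 for protein-coding nuclear genes only. The share of the 10 highest genes was 20.3% without mitochondrial genes and 39.98 to 40.9% without 1 library. The mitochondrial genome share was 8.34% without its ribosomal RNA and 30.1 to 31.4% without 1 library. For cell type marker levels, the cardiomyocyte median was 2365 TPM with the longest transcript as length, 5722 TPM without mitochondrial and small RNA genes, and 1988 to 2058 TPM without 1 library. Isoform shares led in all libraries in 38 families with the longest transcript, 36 with no length and 39 to 40 without 1 library. With no length Ckm led the creatine kinases (Ckmt2 46.0%), and Mef2a led the MEF2 factors with the longest transcript (Mef2d 33.9%) and with no length (32.6%); the length alone differs between these settings. Of 100 called genes among the 106 variable and target genes named, 57 lost their call in some fit without 1 library, 1 with DESeq2 size factors, 3 with library totals and 10 with the common dispersion. With library totals, 153, 182 and 83 genes were shared with MstTg, Gal3Ko and Mst1Gal3. The causes of the other changes were not tested. No paired analysis was possible because 1 group was described, so replicate numbers pair no samples (the family tests pair genes within a library). Depth limits genes near 0.149 CPM.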
